A study of Mus musculus with 8 samples.

Results

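The miR-290 to miR-295 cluster is the main microRNA (miRNA) locus of mouse embryonic stem cells. It was followed here by small RNA sequencing while such cells formed embryoid bodies (EBs), the aggregates in which stem cells leave pluripotency. Members were the rows named for the hairpins mmu-miR-290a, mmu-miR-290b, mmu-miR-291a, mmu-miR-291b, mmu-miR-292a, mmu-miR-292b, mmu-miR-293, mmu-miR-294 and mmu-miR-295, with or without an arm (5p or 3p, the sides of the hairpin from which a mature miRNA is cut). This gave 15 of the 1099 miRNAs listed. Of these, 14 were above 0 and passed the low-value filter of the tests, namely both arms of 7 hairpins. The remaining row, miR-290b-5p, was listed at 0 in all 8 libraries, so no read was counted for it. A count of 0 still allows an expected count of up to about 3 reads in a library. That is 5.54 to 8.28 RPM (miRNA reads scaled to a total of 1000000 per library). miR-292b and miR-290b-3p were not analysed here.

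The cells were KH2-DGCR8, a KH2 mouse embryonic stem cell line labelled mESCs. KH2 cells are built to switch on a transgene with doxycycline (Dox), and the transgene here is DGCR8, the partner of the RNase DROSHA in the Microprocessor, which cuts primary miRNA transcripts. Libraries were made with Dox at days 0, 1, 2 and 4 of EB differentiation and without Dox at the same days, 1 library for each of the 8 conditions. All libraries therefore carry the same transgenic line, and no condition has a replicate. The labels do not say how long Dox was given or whether the line is a single clone, and small RNA libraries do not read the DGCR8 mRNA. According to its design text, the series addresses the role of DGCR8 overexpression in making miRNAs.

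As background, the cluster is transcribed as 1 primary RNA, and DROSHA with DGCR8 cuts out each hairpin before DICER releases the mature arms. Its 3p miRNAs of the AAGUGC type hold back inhibitors of the G1 to S transition and help stem cells to divide rapidly and to stay pluripotent. The cluster is silenced as cells differentiate, while the miR-302 cluster, with the same type of seed, is high in the epiblast. The let-7 family acts in the opposite sense and promotes differentiation.

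The hairpins lie within chr7:3218626-3220841 (mm10), a stretch of 2216 bases. The 7 hairpins that gave reads are on the plus strand, in the order miR-290a, miR-291a, miR-292a, miR-291b, miR-293, miR-294 and miR-295, whereas miR-290b and miR-292b are annotated on the minus strand opposite miR-290a and miR-292a. The hairpins from miR-291a to miR-295 fall within an exon of Nlrp12 on the opposite strand (3218784 to 3222560, GENCODE), in the part annotated as UTR. miR-290a lies outside that exon.

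Mature sequences were available in RefSeq (GRCm38.p6) for 13 of the 14 detected members, miR-292a-3p being the other. They are shown because the seed (bases 2 to 8, in capitals), which selects the targets, divides the cluster into groups that recur in the results. The 3p arms miR-291a-3p, miR-294-3p and miR-295-3p share the seed AAGUGCU, and miR-302b-3p and miR-302d-3p of chromosome 3 have it too.
miR-291a-3p: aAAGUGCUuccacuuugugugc
miR-294-3p: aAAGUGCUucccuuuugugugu
miR-295-3p: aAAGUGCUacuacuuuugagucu
miR-302b-3p: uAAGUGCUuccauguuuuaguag
miR-302d-3p: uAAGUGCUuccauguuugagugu
The other 3p arms end the AAGUGC core differently or are shifted along it.
miR-290a-3p: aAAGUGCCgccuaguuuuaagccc
miR-291b-3p: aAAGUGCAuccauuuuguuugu
miR-293-3p: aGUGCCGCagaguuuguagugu
The 5p arms of miR-290a, miR-292a and miR-293 share the seed CUCAAAC, from which the 5p arms of miR-294 and miR-295 differ in the last base.
miR-290a-5p: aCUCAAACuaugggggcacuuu
miR-292a-5p: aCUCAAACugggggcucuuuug
miR-293-5p: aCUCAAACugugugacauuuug
miR-294-5p: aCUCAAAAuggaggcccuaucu
miR-295-5p: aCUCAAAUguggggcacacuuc
The remaining pair of 5p arms has the seed AUCAAAG.
miR-291a-5p: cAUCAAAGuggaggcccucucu
miR-291b-5p: gAUCAAAGuggaggcccucucc
These last sequences differ only at their ends, by C1G and U22C (positions counted from 1 at the 5′ end, miR-291a-5p first), so reads of the one may have been counted for the other.

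The libraries rested on 362483 to 541342 miRNA reads as implied by the steps of the deposited values, and 58990 to 204168 of these fell to the cluster. A stem cell identity at the start is what the label gives. The most abundant miRNA of both treatments at days 0, 1 and 2 was miR-293-3p, itself a member and so no independent marker of that identity. Markers of other cell types were summed as lists. The 5 epiblast miRNAs (miR-302 and miR-367) ran from 301 to 2151 RPM with Dox and from 357 to 31166 RPM without it. The 7 fibroblast miRNAs listed ran from 19417 to 57665 RPM with Dox and from 13606 to 39750 RPM without it, most of it miR-21a-5p. Muscle and blood lists stayed at or below 130 RPM, with miR-1a-3p, miR-133a-3p, miR-451a and miR-144-3p at 0 in some libraries. The neural list ran from 3053 to 5249 RPM with Dox and from 3672 to 7425 RPM without it, mostly miR-9-5p, and the endoderm list from 589 to 985 RPM with Dox and from 280 to 801 RPM without it. In bulk RNA, fewer cells that express the cluster and less cluster RNA per cell cannot be told apart.

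The cluster held the largest share of reads at day 0 and the smallest at day 4, in both treatments. With Dox its members summed to 40.5%, 39.4%, 37.4% and 22.9% of miRNA reads at days 0, 1, 2 and 4. Without Dox they summed to 46.1%, 41.5%, 36.1% and 16.3%. The share was thus lower at every later day than at day 0, and most of the loss came between days 2 and 4. The exact (Clopper-Pearson) 95% binomial interval at day 4 was 22.8% to 23% with Dox and 16.2% to 16.4% without Dox, and covers counting error only. Relative to day 0, the day 4 sum stood at 0.565 times (95% counting interval 0.561 to 0.57) with Dox and at 0.353 times (0.35 to 0.356) without it. Among the 10 most abundant miRNAs of each library, 7 were members in all libraries of days 0, 1 and 2. At day 4 the number was 4 with Dox and 2 without Dox, and miR-184-3p, which is no member, was then the most abundant miRNA in both libraries.

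**Figure D1:**
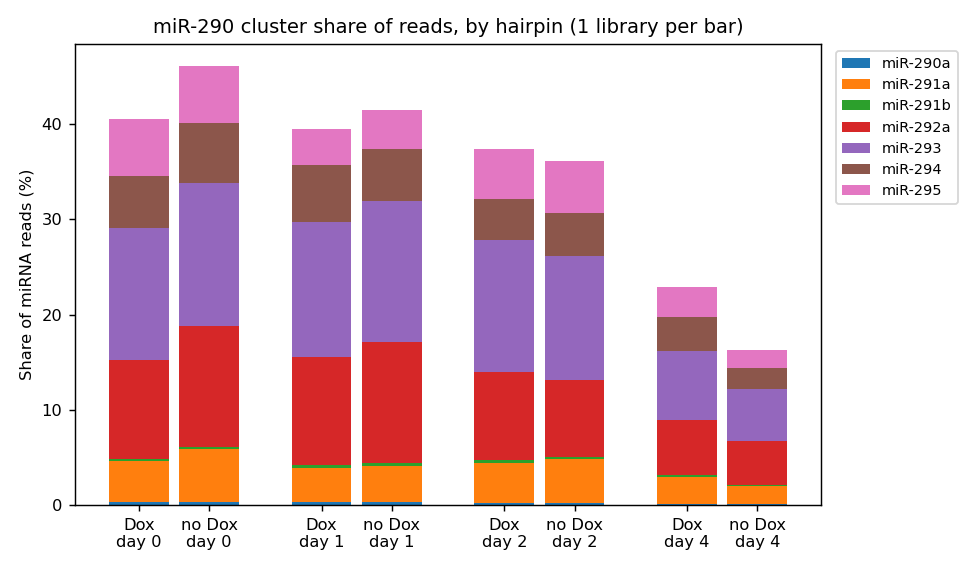
Share of miRNA reads (%) held by the miR-290 cluster in each of the 8 libraries, stacked by hairpin (5p plus 3p), with the Dox bar left of the no Dox bar on each day. The bars stand between 36.1% and 46.1% at days 0 to 2 and at 22.9% (Dox) and 16.3% (no Dox) at day 4, and the hairpins keep similar proportions.

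Within the cluster miR-293 was the most abundant hairpin of every library. It held 34.2%, 35.9%, 37% and 31.5% of cluster reads at days 0, 1, 2 and 4 with Dox, and 32.5%, 35.6%, 36% and 33.1% without Dox. miR-292a was next in every library, with 24.7% to 28.9% with Dox and 22.4% to 30.7% without Dox. miR-291a, miR-294 and miR-295 each held between 9.04% and 16%, and their order changed between libraries. miR-290a and miR-291b, the least abundant hairpins, each held under 1% of cluster reads in every library. Neighbouring hairpins therefore differed widely in level: miR-291b, at 0.585% to 0.895% of cluster reads, lies between miR-292a and miR-293.

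Mature miRNAs are of nearly equal length, so their levels can be set side by side, although library preparation is known to favour some sequences. miR-293-3p, the most abundant of the 1099 miRNAs by mean, stood at 109875, 107760, 110999 and 59319 RPM at days 0, 1, 2 and 4 with Dox, and at 116591, 106500, 105909 and 44466 RPM without Dox. It stayed between 105909 and 116591 RPM over days 0 to 2 and was lower at day 4 in both treatments. miR-292a-5p was at rank 3, miR-294-3p at rank 4, miR-292a-3p at rank 5, miR-295-3p at rank 6, miR-291a-3p at rank 8 and miR-293-5p at rank 10. At the other end, miR-294-5p (88 to 480 RPM), miR-295-5p (190 to 617 RPM) and miR-290a-3p (22 to 153 RPM) were the minor arms of their hairpins, and miR-290a-3p rested on as few as 8 reads in a library.

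**Figure D2:**
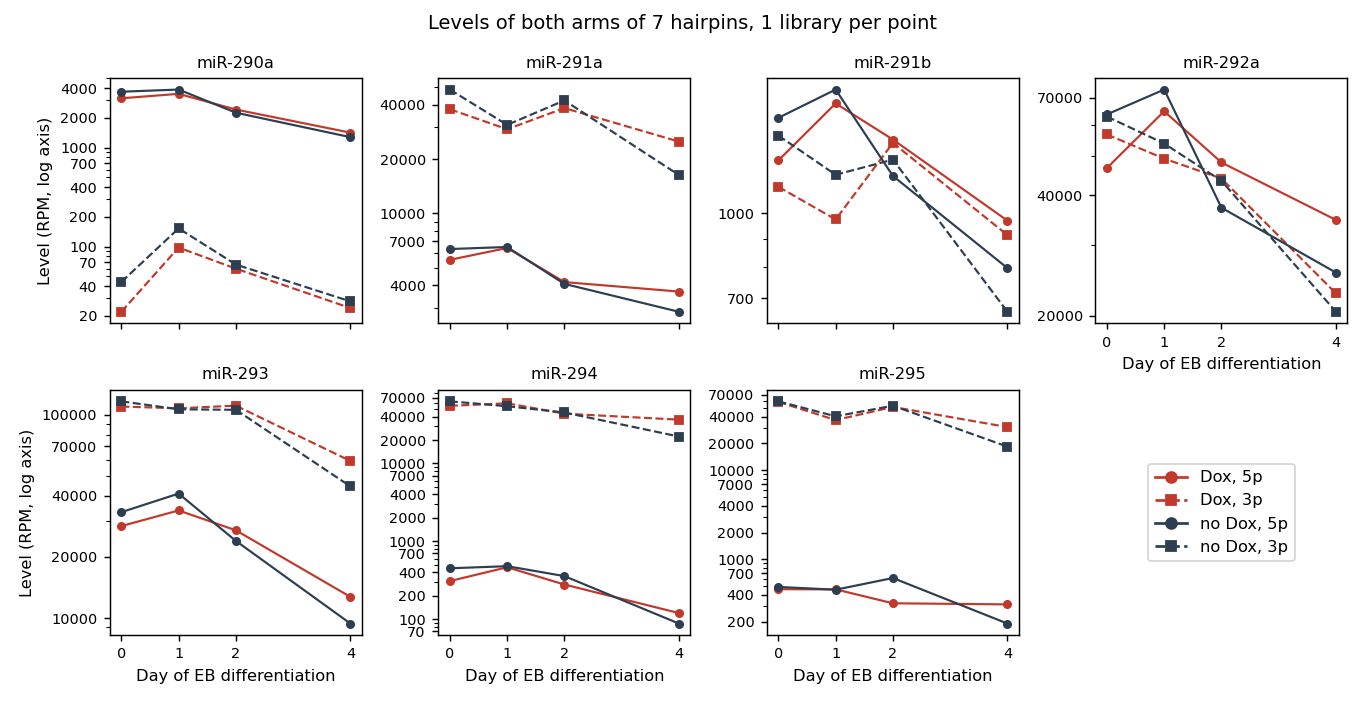
Level (RPM, log axis) of the 5p arm (circles, solid lines) and 3p arm (squares, dashed lines) of each hairpin over days 0, 1, 2 and 4, with Dox in red and without Dox in dark blue, 1 library per point. Both arms of most hairpins are lowest at day 4, and miR-290a-3p peaks at day 1, at 98 RPM with Dox and 153 RPM without it.

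The exit from pluripotency was tested by setting each later day against day 0, with both treatments in 1 limma model over 839 miRNAs (log2 of the value plus 1, Benjamini-Hochberg adjusted p under 0.05). At day 4, 11 of the 14 members fell and none rose, where 25.7% of all miRNAs tested passed and 3.81% passed as lower. The median log2 change of the members was -1.07, beside 0.56 over all miRNAs. Both figures depend on scaling, since the values of each library sum to a fixed total. With median-of-ratios scaling the median over all miRNAs was 0.01 and that of the members -1.66. Under it 13 of 14 members fell, where 162 of all 839 miRNAs passed in either direction. Of the lists for other cell types, the epiblast, fibroblast and muscle lists were highest at day 4 in both treatments. The neural list was highest at day 4 with Dox only, at 5249 RPM. The muscle list reached 53 RPM with Dox and 130 RPM without Dox. The fibroblast list rose to 57665 RPM with Dox and 39750 RPM without Dox, against 19417 RPM with Dox and 13606 RPM without Dox at day 0. In the fibroblast list this was miR-21a-5p: the other 6 miRNAs summed to 4514 RPM with Dox and 2852 RPM without Dox at day 4, against 4742 RPM with Dox and 5178 RPM without Dox at day 0. The part of these miRNAs in the fall of the cluster was not tested.

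The 3p arms of the AAGUGCU seed fell by similar amounts. miR-295-3p stood at 58570, 36614, 51353 and 30513 RPM at days 0, 1, 2 and 4 with Dox, and at 59406, 40330, 53008 and 18412 RPM without Dox. It was lower on both days 1 and 4 than on the days before them, and its day 4 change was -1.32 (SE 0.22, limma adjusted p = 3.88e-08). miR-291a-3p stood at 37773, 29277, 38333 and 24986 RPM with Dox, and at 48568, 30939, 42263 and 16315 RPM without Dox. It followed the same course, with a day 4 change of -1.08 (SE 0.22, limma adjusted p = 1.19e-05). miR-294-3p stood at 54954, 59164, 43562 and 36502 RPM with Dox, and at 62746, 54240, 45153 and 22164 RPM without Dox. It had no trough at day 1, and its day 4 change was -1.05 (SE 0.22, limma adjusted p = 1.53e-05).

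Among the other members, miR-292a-3p had the lowest adjusted p at day 4. Its levels were 56684, 49334, 44006 and 22734 RPM at days 0, 1, 2 and 4 with Dox, and 62835, 53807, 43428 and 20462 RPM without Dox. It went down at each step in both treatments, and its day 4 change was -1.47 (SE 0.22, limma adjusted p = 5.45e-10). miR-293-3p fell by 1.14 on the log2 scale (SE 0.21) and miR-290a-5p by 1.34 (SE 0.27). miR-294-5p, which had 32 reads at day 4 without Dox, fell by 1.85 (SE 0.36), the widest change among the members.

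The 5p arms had smaller and larger changes than their 3p partners. miR-292a-5p stood at 46735, 64774, 48262 and 34682 RPM at days 0, 1, 2 and 4 with Dox, and at 63604, 73378, 37213 and 25626 RPM without Dox, highest at day 1 in both treatments. Its day 4 change was -0.87 (SE 0.21, limma adjusted p = 0.000442). miR-293-5p stood at 28376, 33877, 27045 and 12724 RPM with Dox and at 33215, 41005, 23987 and 9405 RPM without Dox. It too was highest at day 1, and it fell by 1.49 (SE 0.23) at day 4, further than its 3p arm. miR-291a-5p fell by 0.87 (SE 0.26) and miR-295-5p by 0.96 (SE 0.34, limma adjusted p = 0.0198).

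The members that did not pass at day 4 were both arms of miR-291b and miR-290a-3p. miR-291b-3p, at 913 RPM with Dox and 662 RPM without Dox at day 4, against 1118 RPM with Dox and 1386 RPM without Dox at day 0, had a log2 change of -0.68 (SE 0.29, limma adjusted p = 0.0711). miR-291b-5p had one of -0.64 (SE 0.29, limma adjusted p = 0.0895). miR-290a-3p had one of -0.26 (SE 0.51, limma adjusted p = 0.786), which turned to 0.06 when the day 0 library without Dox was left out. Both arms of miR-291b passed under the other 2 scalings, without the day 4 library with Dox, and when only miRNAs averaging 10 RPM or more were tested (limma adjusted p = 0.0384 for the 3p arm of miR-291b and 0.05, just inside the threshold before rounding, for its 5p arm).

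Each day 4 call rests on 2 libraries per day. Leaving out the day 0 library of cells without Dox gave a limma count of 8 in place of 11. The count was 9 on leaving out the day 4 library without Dox, 10 on leaving out the day 0 library with Dox, 13 on leaving out the day 4 library with Dox, and 9 without the robust option. The calls lost in these fits were among miR-291a-5p, miR-292a-5p and miR-295-5p. The remaining 8 members passed in all of the fits run, namely miR-290a-5p, miR-291a-3p, miR-292a-3p, both arms of miR-293 and of miR-294, and miR-295-3p.

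At day 1 the balance of the arms differed from that of the other days. The 5p arms summed to 21.2%, 28.2%, 22.5% and 23.6% of cluster reads at days 0, 1, 2 and 4 with Dox, and to 23.7%, 30.7%, 19.3% and 24.7% without Dox. Both day 1 libraries were thus the highest of their treatment, with exact binomial 95% intervals of 28% to 28.4% (Dox) and 30.5% to 30.9% (no Dox). Relative to the cluster's sum, all 7 of 7 5p arms were higher at day 1 than at day 0 in both treatments. The smallest difference was that of miR-295-5p, at 0.03 with Dox and 0.05 without Dox on the log2 scale. Its own day 1 over day 0 ratio was 0.995 (95% counting interval 0.814 to 1.22) with Dox and 0.931 (0.763 to 1.14) without Dox. No matching count was made for miRNAs outside the cluster. Of the 7 3p arms, 4 were lower in both treatments, and 2 were higher in both, miR-290a-3p and, by at most 0.02 on the log2 scale, miR-293-3p. miR-294-3p was higher with Dox and lower without it.

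The ratio of 5p to 3p within a hairpin does not depend on the scaling of a library. For 6 of 7 hairpins it was higher at day 1 than at day 0 in both treatments, where 28.8% of 139 other hairpins with both arms averaging 10 RPM or more were. The difference on the log2 scale was 0.58 with Dox and 0.69 without Dox for miR-291a, and 0.67 with Dox and 0.43 without Dox for miR-292a. It was 0.67 with Dox and 0.46 without Dox for miR-295, and smallest in miR-293 with Dox, at 0.28. Over the 7 hairpins the median change was 0.54 with Dox and 0.43 without Dox, while that of the other hairpins was -0.1 with Dox and 0.03 without Dox. The cluster's medians lay within the interquartile range of the other hairpins, -0.97 to 0.61 with Dox and -0.6 to 0.7 without Dox. These are single libraries with no test, and the day 0 libraries enter each change.

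miR-290a went the other way. Its 3p arm, in the first hairpin of the cluster, stood at 22, 98, 60 and 24 RPM at days 0, 1, 2 and 4 with Dox, and at 44, 153, 66 and 28 RPM without Dox, highest at day 1 in both. It was the only member that passed at day 1, where 8.1% of all miRNAs did and 7.03% as higher, with a log2 change of 1.94 (SE 0.51, limma adjusted p = 0.00348). The call did not hold without the robust option (limma adjusted p = 0.0773). Nor did it hold without the day 0 library with Dox (limma adjusted p = 0.152), the day 1 library with Dox (limma adjusted p = 0.0827) or the day 1 library without Dox (limma adjusted p = 0.156). miR-295-3p, with a day 1 change of -0.62 (SE 0.22, limma adjusted p = 0.052), passed as lower under both other scalings, with limma-voom, and without either day 4 library. The main arm of miR-290a, the 5p arm, had 3498 RPM with Dox and 3866 RPM without Dox at day 1, so the log2 of its 5p to 3p ratio dropped by 1.96 with Dox and 1.7 without Dox.

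By day 2 the 5p share of cluster reads was again near or below that of day 0, though not every hairpin followed. The log2 of the 5p to 3p ratio differed from day 0 by 0.41 with Dox and -0.24 without Dox for miR-292a. For miR-295 it differed by -0.33 with Dox and 0.5 without Dox. The 5p to 3p ratio was lower at day 2 than at day 1 in both treatments for 5 of 7 hairpins, where 23.7% of the other hairpins were. Compared with day 0 it was lower in both treatments for 4 hairpins and higher for 1, where 28.8% and 44.6% of the other hairpins were. None of the 14 members passed in limma at day 2, where 17.3% of all miRNAs passed. The number was 3 by unadjusted p under 0.05, which 232 of all 839 miRNAs had, and 0 with limma-voom on the implied reads. Under median-of-ratios scaling 102 of all miRNAs passed. Median-of-ratios scaling, under which the median over all miRNAs was 0.03 in place of 0.48, gave 7 lower members, and leaving out the day 4 library with or without Dox gave 2. At day 4 the hairpins had parted: relative to day 0 in both treatments, the ratio was higher for miR-291a, miR-292a and miR-295 (20.1% of the other hairpins), although for miR-291a with Dox by only 0.01 on the log2 scale, and lower for miR-290a, miR-293 and miR-294 (26.6% of the other hairpins).

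**Figure D3:**
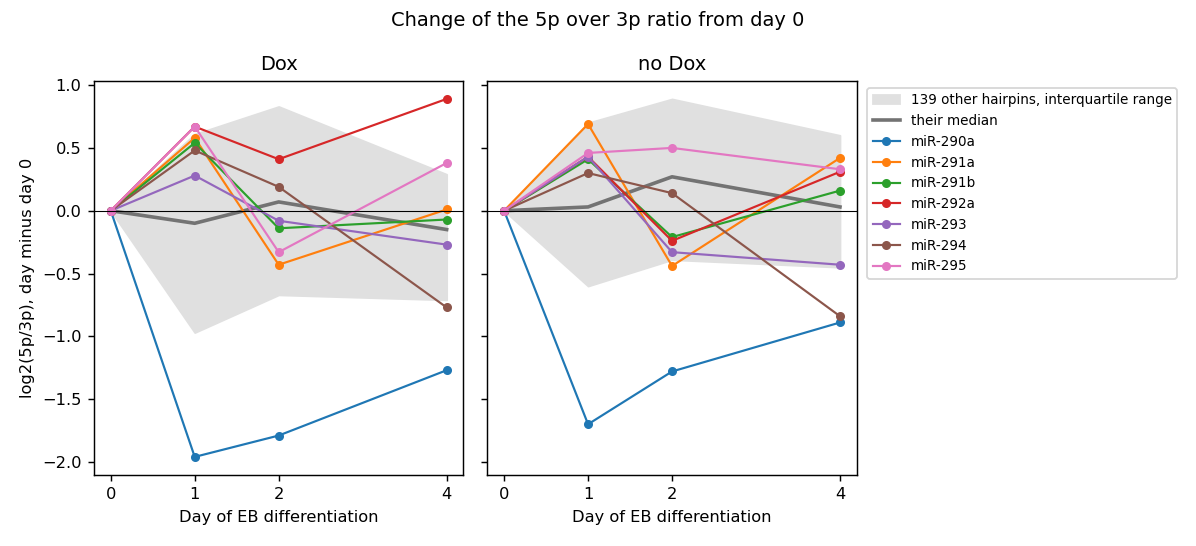
Change of log2(5p/3p) from day 0 for the 7 hairpins, with Dox (left) and without Dox (right), 1 library per point. The grey band and line give the interquartile range and median of 139 other hairpins; at day 1, 6 of the 7 cluster hairpins lie above 0 in both panels and miR-290a lies at -1.96 (Dox) and -1.7 (no Dox).

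Dox was set against no Dox across the 4 days to see whether the cluster moved with the inducer of DGCR8. No member passed in limma, where 1.91% of all miRNAs did. The number was also 0 by unadjusted p under 0.05, which 88 of all 839 miRNAs had, and 0 with limma-voom. The 14 log2 changes ran from -0.49 for miR-290a-3p to 0.15 for miR-294-3p, with a median of 0.02 beside 0.03 over all miRNAs. The difference in the cluster's share, Dox minus no Dox, was -5.61, -2.02, 1.28 and 6.62 percentage points at days 0, 1, 2 and 4. Its mean was 0.0658 ± 5.19 points (SD, n = 4 days; exact two-sided sign-flip permutation test, p = 1; 4 pairs give 16 sign patterns, of which the most extreme result takes 2, so no p under 0.05 is possible).

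The direction differed between days. At day 0 all 14 members were lower with Dox, at 0.501 to 0.986 times the level without it, with the counting interval below 1 for 11 of them, while 52.4% of 485 other miRNAs averaging 10 RPM or more were higher. At day 4, 13 of 14 were higher with Dox, at up to 1.66 times, with the interval above 1 for 11, while 45.4% of the others were higher. The exception was miR-290a-3p at 0.87 (0.353 to 2.22). The median log2 ratio of the members was -0.22, -0.1, 0.03 and 0.44 at days 0, 1, 2 and 4, while that of the others was 0.04, 0.09, -0.1 and -0.08. These are ratios of 1 library to 1 library, and the intervals cover counting error only. Intervals are narrow for abundant members, such as 0.93 to 0.955 for miR-293-3p at day 0. They were not counted for the other miRNAs, so the counts of 11 have no matching share beside them.

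At day 4 the 3p arms with the AAGUGCU seed were among the members furthest above their level without Dox. miR-295-3p stood at 1.66 times its level without Dox (95% counting interval 1.61 to 1.71), miR-294-3p at 1.65 times (1.6 to 1.69) and miR-291a-3p at 1.53 times (1.49 to 1.58). With miR-295-5p at 1.64 times (1.23 to 2.2), 4 members were at least 1.5-fold higher, where 19.2% of the other miRNAs were. miR-292a-3p, at 1.11 times (1.08 to 1.14), and miR-290a-5p, at 1.11 times (0.988 to 1.25), were nearest to their levels without Dox. In transcript order the ratio for the sum of both arms was 1.11 for miR-290a, 1.5 for miR-291a, 1.25 for miR-292a and 1.29 for miR-291b. It was 1.34 for miR-293, 1.65 for miR-294 and 1.66 for miR-295. Only miR-291a thus stood out of a rising order, and a link with position was not tested.

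Whether the Dox ratio changed steadily with day was tested with a product of treatment and day. All 14 members had a positive slope, from 0.08 to 0.23 on the log2 scale per day, beside a median of -0.04 over all miRNAs. The members share the same 8 libraries, so their agreement is not repeated evidence. None passed in limma, where 0.954% of all miRNAs did. An unadjusted p under 0.05 was found for 5 members and for 95 of all 839 miRNAs. With limma-voom 0 passed. The lowest adjusted p were 0.0923 for miR-292a-5p (slope 0.23, SE 0.07) and 0.103 for miR-291a-3p (slope 0.23, SE 0.07). After scaling to the reads outside the cluster, 4 members passed, miR-292a-5p, miR-291a-3p, miR-294-3p and miR-295-3p, with slopes of 0.27 to 0.3. Under that scaling 11 of all 839 miRNAs passed. Without the day 4 pair of libraries the slope was -0.01 for miR-295-3p, 0.07 for miR-294-3p and 0.11 for miR-291a-3p, but 0.41 for miR-292a-5p, and none of these passed.

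Other lists also differed between the day 4 libraries. The epiblast list stood at 2151 RPM with Dox and 31166 RPM without it, and the fibroblast list, mostly miR-21a-5p, at 57665 RPM with Dox and 39750 RPM without it. Their part in the day 4 difference of the cluster was not tested.

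**Figure D4:**
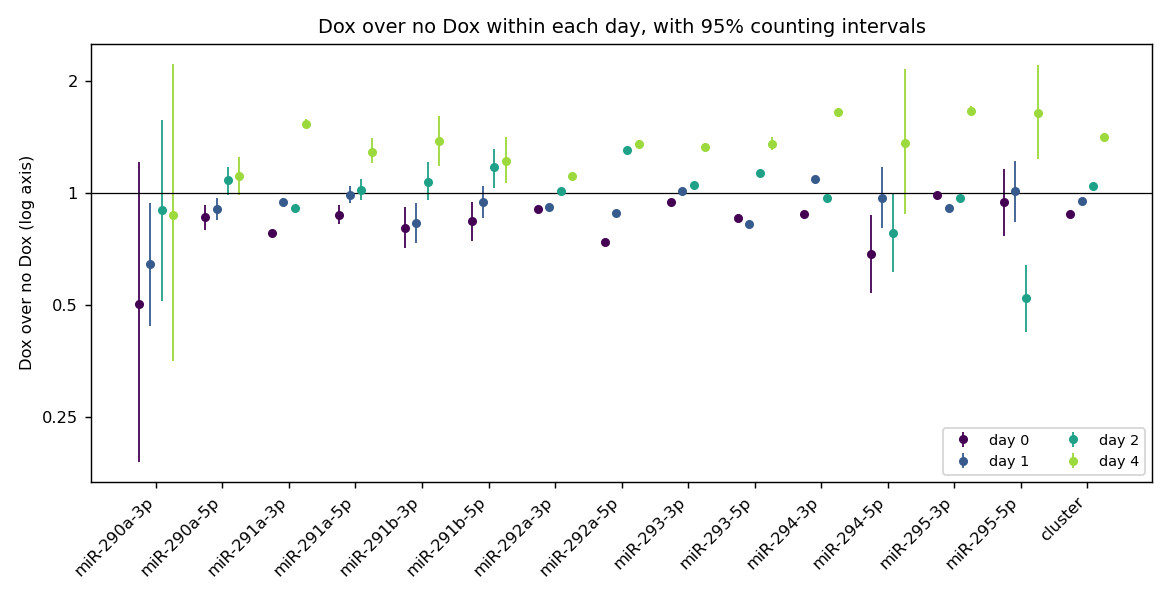
Dox over no Dox (log axis) for each detected member and for the cluster's sum at days 0, 1, 2 and 4, with 95% counting intervals. The sum stands at 0.878, 0.951, 1.04 and 1.41 in day order, and only miR-290a-3p lies below 1 at day 4.

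The arms of a hairpin, which come from the same precursor, were next compared between treatments. The log2 ratio of 5p to 3p was higher with Dox on all 4 days for miR-290a, by 0.46 ± 0.22 (SD, n = 4 days; exact two-sided sign-flip permutation test, 2 of 16 sign patterns as extreme, adjusted p = 0.438 over 7 hairpins). Of the other hairpins 7.91% were higher on all 4 days. For miR-294 it was lower with Dox on all 4 days, by -0.28 ± 0.08 (SD, n = 4 days; same exact test, 2 of 16 sign patterns as extreme, adjusted p = 0.438), where 8.63% of the others were. Both are the most extreme outcomes that 4 days allow, and the minor arms behind them are rare, with 8 to 69 reads for miR-290a-3p and 32 to 241 for miR-294-5p. For the other 5 hairpins the mean difference lay between -0.21 and 0.07, with no 1 direction on all 4 days. The widest single difference among them was that of miR-295 at day 2, -0.89, when miR-295-5p was at 321 RPM with Dox and 617 RPM without Dox.

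Because targets are chosen by the seed, levels were also summed over the 5 miRNAs listed whose RefSeq seed is AAGUGCU. The sum was 151546, 125554, 134101 and 93715 RPM at days 0, 1, 2 and 4 with Dox, and 170972, 126109, 141888 and 81193 RPM without Dox. It was lower at day 4 than at day 0 in both treatments, at 0.618 times with Dox and 0.475 times without Dox. The cluster supplied at least 98.2% of it in every library with Dox and at least 99% without Dox up to day 2. In the day 4 library without Dox it supplied 70.1%, or 56891 RPM, against 24302 RPM from miR-302b-3p and miR-302d-3p. With Dox the same day had 92001 RPM from the cluster and 1714 RPM from that pair.

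The treatments therefore differed less in the sum at day 4 than in either of its parts. Dox over no Dox was 1.15 for the sum, 1.62 for the cluster's members and 0.0705 for miR-302b-3p and miR-302d-3p. Adding miR-302a-3p and miR-302c-3p, brought the ratio to 1.07, a variant chosen after the values were seen. The RefSeq sequence of miR-302c-3p has another seed in this frame, and miR-302a-3p, at 310 RPM with Dox and 4444 RPM without Dox at day 4, was added by name and not by its seed. These are single libraries with no test.

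**Figure D5:**
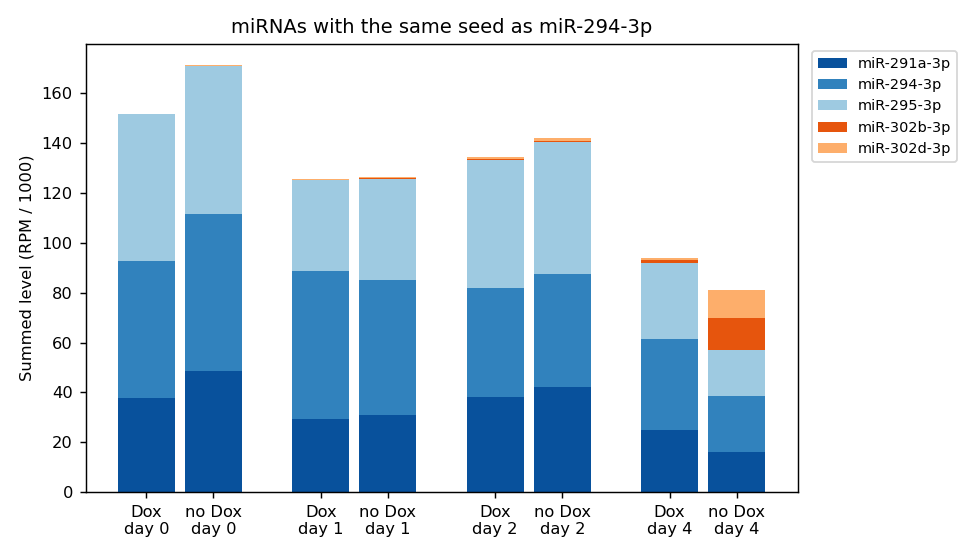
Summed level (RPM divided by 1000) of the 5 miRNAs with the seed AAGUGCU in each library, the cluster's members in blue and miR-302b-3p and miR-302d-3p in orange, with Dox left of no Dox on each day. The orange part is visible mainly at day 4 without Dox, where it makes up 24302 of 81193 RPM.

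The other seeds of the cluster were nearly its own. The CUCAAAC sum of miR-290a-5p, miR-292a-5p and miR-293-5p was 78265, 102149, 77734 and 48825 RPM at days 0, 1, 2 and 4 with Dox, and 100494, 118249, 63456 and 36308 RPM without Dox, highest at day 1 in both. No other miRNA with a RefSeq sequence in the table had that seed, AUCAAAG or the seed of miR-293-3p. At day 1 the CUCAAAC sum came close to the AAGUGCU sum, at 102149 against 125554 RPM with Dox and 118249 against 126109 RPM without Dox.

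Relatives outside the cluster were also counted. Of 10 miRNAs with an AAGUGC core, 4 of miR-302 and 6 of the miR-17 family, none fell and 3 rose at day 4 (median log2 change 0.88, beside 0.56 over all miRNAs), where 21.9% of all miRNAs rose. They were miR-20b-5p, miR-302a-3p and miR-302c-3p, and the day 4 level of miR-302a-3p was 310 RPM with Dox and 4444 RPM without Dox. Only miR-20b-5p rose with a pseudocount of 0.5 or 5 and with limma-voom. When only miRNAs averaging 10 RPM or more were tested, miR-302c-3p did not pass. Without the robust option 5 rose, miR-20b-5p and all 4 of miR-302. With median-of-ratios scaling 1 rose, miR-20b-5p, and 2 fell, miR-20a-5p and miR-93-5p, while no list member passed without the day 0 library without Dox. miR-20b-5p was also the only one to rise without the day 0 or day 2 library with Dox or the day 2 library without Dox, and the count was 6 and 5 without the day 4 library with and without Dox. At day 2 also 3 rose, where 15.3% of all miRNAs did. That count was 1 with median-of-ratios scaling and without the day 2 library with Dox or the day 0 or day 2 library without Dox, and 7 without either day 4 library. The most abundant were miR-20a-5p, at 12499, 8197, 10408 and 7605 RPM at days 0, 1, 2 and 4 with Dox and 8523, 10821, 14917 and 12533 RPM without Dox, and miR-17-5p, between 6918 and 12183 RPM. Neither passed at day 4 with the deposited scaling. The Dox ratio fell with day for 4 of the list, all of miR-302, where 0.715% of all miRNAs passed as lower. None of these 4 passed without the robust option, or when any library of day 2 or day 4 was left out.

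The let-7 family, which opposes the stem cell program, was higher early. Of its 9 miRNAs 6 rose at day 1 (median log2 change 1.32, beside 0.37) and 7 at day 2 (1.21, beside 0.48), while 1 rose at day 4 (0.33, beside 0.56). Over all miRNAs 7.03%, 15.3% and 21.9% rose at days 1, 2 and 4. let-7a-5p stood at 547, 1251, 1198 and 584 RPM at days 0, 1, 2 and 4 with Dox, and at 548, 1358, 1338 and 808 RPM without Dox, and its day 1 change was 1.25 (SE 0.3, limma adjusted p = 0.000979). let-7c-5p changed by 1.12 (SE 0.31, limma adjusted p = 0.00597). No let-7 miRNA passed for Dox. The day 1 count was 4 with median-of-ratios scaling, 1 without the day 0 library without Dox and 3 without the day 1 library without Dox. The day 2 count was 2 with median-of-ratios scaling, 1 without the day 0 library without Dox or the day 2 library with Dox, and 0 without the day 2 library without Dox.

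The miRNAs most like the cluster were sought by correlation over the 8 libraries, as a description, among 485 others averaging 10 RPM or more. The libraries share days and treatments, and each value is a share of the same total. miR-146b-5p was the most alike (Pearson's r = 0.94, Spearman's rho = 0.95), with 812, 829, 551 and 438 RPM at days 0, 1, 2 and 4 with Dox and 938, 887, 574 and 298 RPM without Dox. It was followed by miR-672-5p (r = 0.92, rho = 0.64), miR-181c-5p (r = 0.92, rho = 0.98), miR-150-5p (r = 0.91, rho = 0.98) and miR-96-3p (r = 0.89, rho = 0.62). Without the day 4 libraries r was 0.87 for miR-146b-5p, 0.96 for miR-181c-5p and 0.89 for miR-150-5p. It was 0.06 for miR-672-5p and 0.07 for miR-96-3p, so these rest on day 4. The most opposite were miR-34c-5p (r = -0.99, rho = -0.93), miR-302b-3p (r = -0.97, rho = -0.98) and miR-340-5p (r = -0.96, rho = -0.95). Without the day 4 libraries they stood at -0.85, -0.9 and -0.95.

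Members followed their own sum to different degrees. Pearson's r with it was 0.99 for miR-293-3p and 0.98 for miR-292a-3p, which are part of that sum, and 0.51 for miR-290a-3p. Without the day 4 libraries it was 0.96 for miR-292a-3p, 0.24 for miR-291a-3p, 0.18 for miR-295-3p, 0.17 for miR-291b-3p, 0.03 for miR-295-5p and -0.14 for miR-290a-3p. The remaining members lay between 0.54 for miR-291b-5p and 0.85 for miR-294-3p.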

How the data were processed

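Small RNA was sequenced from KH2-DGCR8 cells in 8 conditions, 1 library each; the labels' protocols name TRIzol extraction and NEBNext small RNA library preparation. The deposited values are scores: whole numbers that sum to about 1000000 per library, which is what RPM rounded by the authors would give. Bowtie and mm10 are named in the submitters' processing notes; how reads were counted, and what was done with reads fitting more than 1 miRNA, is not recorded there. A row without values was left out.

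Reads were implied from the value steps, as the smallest total for which every value is a whole number of reads within 0.5 RPM. Intervals of ratios are exact conditional binomial intervals at 95% on those reads, and PCR copies are not independent molecules, so they cover counting error only. Tests used limma 3.58.1 in R 4.3.3, on log2(value + 1), for the 839 miRNAs that reached 1 RPM in 2 or more libraries. The fit had a mean-variance trend and a robust prior. The model held treatment and day (3 residual degrees of freedom), so day is the block; the change of the Dox effect added treatment times day (2 residual degrees of freedom). Own residual SDs of members ran from 0.1 to 0.48 in the model of treatment and day and from 0.02 to 0.53 in that of the change. The spread of 800 and 836 miRNAs in these models was taken from the trend. In the model of treatment and day, limma p-values set each change against the variation of the Dox difference between days. In the model of the change, they use what is left of this variation around a steady change. Either may be technical. Without the robust option the day 4 limma adjusted p was 0.00484 for miR-292a-3p and 0.013 for miR-295-3p, in place of 5.45e-10 and 3.88e-08. All member rows are named; other miRNAs were named by list or by the highest and lowest correlation. Members and lists were chosen with earlier results of these data known. The method was tested on simulated data with changes in miRNAs of low and moderate level, as many up as down. The fall of a group that holds a large share of reads was not simulated.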

Additional observations from a re-analysis of the deposited data

How the results depend on the processing

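Day 4 calls kept their direction under all scalings, pseudocounts, filters and tools run; with 1 library left out the count of 11 ran from 8 to 13. The day 1 count of 1 was 3 with median-of-ratios scaling, 2 when scaled outside the cluster, 2 with limma-voom and 0 without the robust option, and ran from 0 to 3 with 1 library left out. The day 2 count of 0 was 7 with median-of-ratios scaling and 1 when scaled outside the cluster, and ran from 0 to 2. The count of 0 for the change of the Dox effect was 4 when scaled outside the cluster; it and the Dox count of 0 ran from 0 to 0 otherwise. The cause was not tested. The fit without day as a block (no replicate block) left the Dox count at 0; the labels carry no replicate numbers, so no other pairing was possible.

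The share difference of 0.0658 points was -0.296 without miR-293-3p and ran from -2.12 to 1.96 with 1 day left out. The Dox difference of the arm ratio then ran from 0.367 to 0.536 for miR-290a, -0.0058 to 0.133 for miR-291a, -0.00165 to 0.119 for miR-291b, -0.022 to 0.195 for miR-292a, -0.138 to -0.00532 for miR-293, -0.312 to -0.251 for miR-294 and -0.325 to 0.0239 for miR-295. With 1 library left out the day 4 change of miR-290a-3p ran from -0.58 to 0.06, and the slope of miR-295-3p from -0.01 to 0.3. The count of 6 hairpins with a higher 5p to 3p ratio at day 1, whose alternatives were chosen after seeing the data, stayed at 6 with pseudocounts of 0.5 and 5 and was 5 against day 2. Depth limits miR-290a-3p and miR-294-5p most.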
